A study of Mus musculus with 6 samples.

Results

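The cytosolic heat shock genes examined here were Hsf1, Hspa1a, Hspa1b, Hspa8, Hsp90aa1, Hsp90ab1, Hsph1, Hspb1, Dnajb1 and Cryab, 10 of the 54532 genes in the deposited table, and they were picked by gene symbol. All 10 symbols were found, each on 1 row. Expression had been measured by RNA-seq in mouse aortic smooth muscle cells (MASMCs), primary cells that the study's methods describe as freed with collagenase from abdominal aortas, the donors being wild-type mice 10 weeks old. The 6 libraries formed 2 groups of 3. Cells labelled Ad-Con had received adenoviral vectors carrying a control plasmid, and cells labelled Ad-PDK4 had received vectors carrying a plasmid to overexpress pyruvate dehydrogenase kinase 4 (PDK4), an inhibitory kinase of the pyruvate dehydrogenase complex. The genotype labels read WT and pyruvate dehydrogenase kinase 4 overexpression. Per the study both groups were also exposed to angiotensin II (Ang II) at 1 μM for 48 h, and the methods describe serum starvation before in vitro experiments, so both groups share these treatments. No library without vector or without Ang II was analysed here.

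Heat shock proteins are chaperones that bind unfolded or newly made proteins and keep them from aggregating. HSF1 is the transcription factor that raises their genes when unfolded proteins accumulate, by binding heat shock elements, which are facing repeats of the bases GAA. HSP70 proteins work in cycles of ATP hydrolysis with J-domain partners and nucleotide exchange factors, HSP90 proteins mature kinases and steroid receptors, and small heat shock proteins hold unfolded clients without using ATP. In smooth muscle, HSPB1 and the alpha B-crystallin encoded by Cryab also associate with the actin and desmin cytoskeleton.

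Promoter sequences show where such repeats lie upstream of these genes, and 5 of the 10 members matched the RefSeq promoter table used here (GRCm38.p6). The motif searched was a pair of facing repeats, GAANNTTC or TTCNNGAA, where N is any base. Each motif reads the same on both strands, and the 2 forms can overlap. It was sought in the 150 bases before each annotated start. Hspa1a, Hspa1b, Hspb1 and Hsph1, 4 of the 5, held a pair, as did 7.73% of the 32851 RefSeq promoter windows of that length examined. No pair was found at either annotated start of Dnajb1. A run of 3 alternating repeats (either pair, then NN and GAA or TTC facing the other way, so that it contains the pair) was found in 0.268% of those windows and in no window of the 5 members. The 3 full windows with a pair are printed first, 5′ to 3′ on the gene's strand and ending at the base before the start, because Hspa1a and Hspa1b are nearly the same sequence and Hspb1 holds 2 pairs. The capitals mark the pairs. A match describes letters only and does not show binding.
Hspa1a (chr17:34972157-34972306, minus strand): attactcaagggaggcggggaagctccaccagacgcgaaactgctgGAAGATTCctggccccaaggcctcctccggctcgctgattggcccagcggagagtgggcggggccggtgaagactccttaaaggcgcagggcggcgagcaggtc
Hspa1b (chr17:34959239-34959388, minus strand): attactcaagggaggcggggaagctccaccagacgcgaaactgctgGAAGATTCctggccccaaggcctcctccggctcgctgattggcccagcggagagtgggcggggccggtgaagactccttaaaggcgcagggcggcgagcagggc
Hspb1 (chr5:135887769-135887918, plus strand): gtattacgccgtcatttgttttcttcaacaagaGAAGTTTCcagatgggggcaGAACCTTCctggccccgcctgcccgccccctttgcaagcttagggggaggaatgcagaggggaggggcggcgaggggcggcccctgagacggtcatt
Hsph1 (chr5:149636351-149636380, minus strand, 30 bases around its pair): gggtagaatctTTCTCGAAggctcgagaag
In Hspa1a and Hspa1b the pair lies 104 to 97 bases before the start, and the 2 windows differ at 1 base. In Hspb1 the pairs lie 117 to 110 and 97 to 90 bases before the start. In Hsph1 the pair lies 33 to 26 bases before the upstream RefSeq start, and the 5′ UTR of an Hsph1 transcript that GENCODE starts further upstream reaches over it.

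The values were FPKM (fragments counted per gene after division by gene length and library size), so levels between genes are compared per base of the gene lengths the authors used. Whole reads were recovered from them, from 17588942 to 21861872 reads per library, and every member had at least 243 reads in every library. Counting error weighed most on Hspa1a, the member with the fewest reads (243 to 349 per library). The correlation of log2 values across genes, which are not independent replicates, was 0.970 to 0.975 within groups and 0.923 to 0.928 between them. Pdk4, the check of the labels, stood at 10.0 ± 0.469 FPKM in Ad-Con-labelled and 7.48 ± 0.162 in Ad-PDK4-labelled libraries (mean ± SD, n = 3 each). It was thus lower where it was labelled as overexpressed (log2 fold change -0.42, limma adjusted p = 0.0011), and it is unknown if transcripts of the vector insert were counted on it. Ad-Con and Ad-PDK4 therefore stand for labels throughout, and higher or lower means higher or lower in the libraries labelled Ad-PDK4. Values in log2 are fold changes on the scale of log2(FPKM + 0.1), with the standard error (SE) and the Benjamini-Hochberg adjusted p of limma.

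The labelled cell type was checked against its markers. Of 8 smooth muscle markers, Acta2 (78.0 FPKM) and Smtn (8.32 FPKM) were the highest in Ad-Con-labelled libraries. Myh11 had at most 10 reads in any library, Tagln at most 20 and Des at most 16. Cnn1 had 20 to 30 reads with the Ad-Con label and 8 to 17 with the Ad-PDK4 label, and Lmod1 had 36 to 64 over all libraries. Only 3 of the 8 averaged 0.5 FPKM or more, so most of these markers were low in cells labelled as smooth muscle. The 8 markers summed to 87.8 to 89.4 FPKM with the Ad-Con label and 43.3 to 48.1 with the Ad-PDK4 label. Most of each sum was Acta2, which was called lower (36.2 FPKM). Smtn was at 8.44 FPKM with the Ad-PDK4 label and was not called (limma adjusted p = 0.84), and Mylk had 122 to 188 reads against 24 to 28, but its mean FPKM was under the 0.5 needed for the test. The summed level of 5 fibroblast markers ran from 1302 to 1415 and from 666 to 728 FPKM, with Lum, Dpt and Col1a1 called lower and Dcn higher. With the Ad-Con label Col1a1 averaged 1055 FPKM and Dpt 191.5, both above Acta2. Of 5 macrophage markers, Ptprc and Tyrobp had 0 reads in every library, Adgre1 had 1 read in 1 library, and the sum ran from 13.3 to 16.4 and from 3.68 to 5.50 FPKM, most of it Cd68. Csf1r, the fifth, had 11 to 35 reads against 56 to 62, opposite in direction to Cd68, and was likewise not tested. The sum of 5 endothelial markers ran from 0.617 to 0.798 and from 0.885 to 1.18 FPKM, most of it Kdr. Kdr had 71 to 121 reads against 141 to 174 and was not called (0.68 in log2, limma adjusted p = 0.0645). The defining marker Cdh5 had 0 reads in 5 of the 6 libraries. These sums differed between the groups in the same libraries as the heat shock genes below, and their part in those results was not tested. In bulk samples fewer cells of a type and less RNA per cell cannot be told apart.

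The comparison asks how the expression of these chaperones differed between cells labelled as overexpressing PDK4 and control cells. Of the 10 members, 9 were higher in the libraries labelled Ad-PDK4 (adjusted p below 0.05), where 21.8% of the 13423 tested genes were higher. None was lower by limma, where 20.8% of tested genes were, and none was lower at an unadjusted p below 0.05 or by limma-voom on the recovered reads. The exception was Hsp90ab1, which was not called. For the 9 the groups did not overlap, as in 27.8% of tested genes in that direction. All 10 members also passed a stricter filter, a mean FPKM of at least 5. With it 9 members were again higher and 0 lower, beside 2162 higher and 1881 lower of 7731 tested genes. The median log2 fold change of the 10 members was 0.62, beside -0.003 over all tested genes. The members were chosen with earlier results of these data known, so these contrasts with all genes can partly reflect that choice. Rises that also reached 2-fold were those of Hspa1b and Hsph1, 2 of 10, beside 3.95% of tested genes. Hsph1 passed this limit narrowly. Its log2 fold change was 0.993 with 1 instead of 0.1 added to FPKM and 0.992 under quantile normalization, both just under 2-fold.

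**Figure D1:**
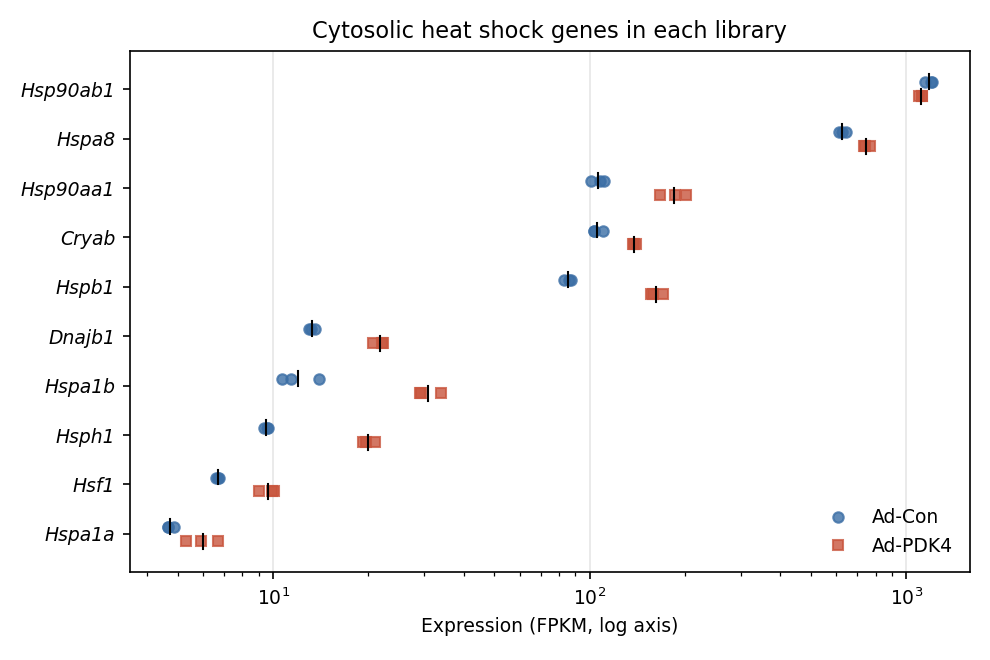
Expression of the 10 heat shock genes in FPKM on a log axis, with 1 point per library (circles Ad-Con, squares Ad-PDK4, n = 3 each) and a black tick at each group mean. All squares lie to the right of the circles except for Hsp90ab1, the most abundant member, and the levels run from 4.65 FPKM for Hspa1a to 1200.3 FPKM for Hsp90ab1.

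Hsf1 encodes the factor that switches on heat shock genes under stress (ENSMUSG00000022556, chromosome 15, 76477422 to 76501913). In Ad-Con-labelled libraries it stood at 6.72, 6.74 and 6.61 FPKM, and in Ad-PDK4-labelled libraries at 10.0, 9.95 and 8.999 (values are given in this order, replicates 1 to 3, for each gene). All 3 Ad-PDK4 libraries were above all 3 Ad-Con libraries. Hsf1 rose by 0.52 in log2 (SE 0.06, limma adjusted p = 0.00049). The level of its mRNA does not show whether the protein was active, which depends on its release from chaperones and its phosphorylation. The FPKM used a gene length of 7099 bases where its longest annotated transcript has 3133, which lowers its level on this scale but not its fold change.

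Of the HSP70 genes, Hspa1a and Hspa1b encode the stress-inducible proteins and Hspa8 the constitutive one, which folds newly made proteins in unstressed cells. Hspa1b (ENSMUSG00000090877, chromosome 17, 34956436 to 34959238) was at 11.4, 13.9 and 10.6 FPKM against 29.2, 34.0 and 29.1. Even the lowest Ad-PDK4 library was over the highest Ad-Con library by a wide gap, and the rise of 1.36 in log2 (SE 0.11, limma adjusted p = 5.4e-05) was the largest among the members. Hspa1a (ENSMUSG00000091971, chromosome 17, 34969190 to 34972156) was at 4.65, 4.66 and 4.85 against 5.91, 6.72 and 5.33 FPKM. The lowest Ad-PDK4 library stood only just above the highest Ad-Con library, and the rise was 0.33 in log2 (SE 0.09, limma adjusted p = 0.023). Leaving out Ad-Con replicate 1 (limma adjusted p = 0.065), Ad-Con replicate 2 (0.060) or Ad-PDK4 replicate 1 (0.060) ended this call.

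Hspa1a and Hspa1b lie next to each other on the minus strand, and 71.0% of the longest Hspa1a transcript and 75.2% of that of Hspa1b match the other gene in stretches of 50 bases. The counting can therefore have split or dropped their reads, and the value of each gene alone is uncertain. Together they held 933, 928 and 802 reads in Ad-Con-labelled libraries and 1809, 2017 and 2150 in Ad-PDK4-labelled ones. Fitted as 1 feature they rose by 1.12 in log2 (limma adjusted p = 4.9e-05).

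Hspa8 (ENSMUSG00000015656, chromosome 9, 40800984 to 40810087) was at 611, 643 and 627 FPKM against 739, 732 and 767. The groups did not overlap, and Hspa8 rose by 0.25 in log2 (SE 0.04, limma adjusted p = 0.003), the smallest rise called among the members. Of its longest transcript, 72.6% matches other annotated genes, 11 of them pseudogenes. The pseudogene Gm8355, which shares 54.4% of that transcript, had only 42 to 81 reads per library where Hspa8 had 48567 to 72865. Within a library the summed FPKM of Hspa1a and Hspa1b was 0.0263, 0.0289 and 0.0247 of that of Hspa8 with the Ad-Con label and 0.0475, 0.0556 and 0.0449 with the Ad-PDK4 label. This ratio was 1.85-fold higher and did not overlap, and its exact two-sided permutation test gave p = 0.1 (adjusted p = 0.1 over 3 ratios), the smallest p that 3 against 3 libraries allow.

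The partners of HSP70 also differed. Hsph1 (ENSMUSG00000029657, chromosome 5, 149614287 to 149636376) encodes HSP105, an HSP110 protein that exchanges the nucleotide on HSP70. It was at 9.64, 9.34 and 9.60 FPKM against 19.7, 19.2 and 21.0, 2 tight groups far apart. It rose by 1.06 in log2 (SE 0.06, limma adjusted p = 5.6e-06). No stretch of 50 bases of its longest transcript matches another gene. Dnajb1 (ENSMUSG00000005483, chromosome 8, 83608193 to 83612653) encodes the J-domain protein HSP40, which delivers clients to HSP70. It was at 12.97, 13.6 and 13.1 FPKM against 22.3, 20.7 and 22.1. Its groups did not overlap, with a rise of 0.71 in log2 (SE 0.05, limma adjusted p = 3.6e-05), and 2.07% of its longest transcript matches other genes.

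The HSP90 genes differed from each other. Hsp90aa1 (ENSMUSG00000021270, chromosome 12, 110690605 to 110702728) encodes the stress-inducible alpha form and Hsp90ab1 (ENSMUSG00000023944, chromosome 17, 45567775 to 45573271) the constitutive beta form. Hsp90aa1 was at 108, 101 and 111 FPKM against 186, 167 and 201. It rose by 0.79 in log2 (SE 0.07, limma adjusted p = 0.00011), with the 3 Ad-PDK4 libraries more spread than the 3 Ad-Con libraries. Hsp90ab1 was at 1147, 1200.3 and 1192 FPKM against 1116, 1117 and 1096. All 3 Ad-PDK4 libraries were below all 3 Ad-Con libraries, as in 26.5% of tested genes, but the difference of -0.09 in log2 (95% interval -0.19 to 0.01, limma adjusted p = 0.13) did not pass the test. Under quantile normalization the value was 0.06, so no direction is given for Hsp90ab1. The interval does not show that the level was the same.

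The ratio of Hsp90aa1 to Hsp90ab1 within a library does not depend on scaling between libraries. It was 0.0937, 0.0838 and 0.0929 with the Ad-Con label and 0.167, 0.149 and 0.183 with the Ad-PDK4 label, so the beta form stayed the more abundant mRNA in every library. The ratio was 1.84-fold higher with the Ad-PDK4 label, without overlap (exact two-sided permutation p = 0.1, adjusted p = 0.1). Of the longest Hsp90aa1 transcript, 67.1% matches other genes, all 4 of them pseudogenes, and 14.6% of that of Hsp90ab1. The pseudogene Gm12346, which shares 64.2% with Hsp90aa1, had 101 to 208 reads per library where Hsp90aa1 had 6940 to 17428.

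**Figure D2:**
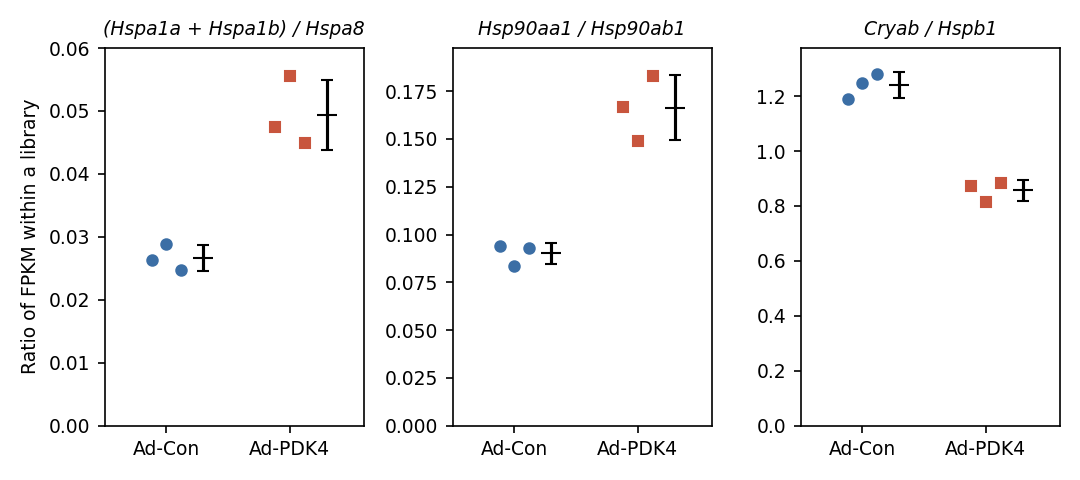
Ratios of FPKM within each library for inducible over constitutive HSP70, HSP90 alpha over beta and Cryab over Hspb1, with 1 point per library and the group mean ± SD (n = 3) beside the points; the axes start at 0. The HSP70 and HSP90 ratios are higher in all 3 Ad-PDK4 libraries and the Cryab to Hspb1 ratio is lower in all 3.

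Small heat shock proteins were represented by Hspb1, which encodes HSP25 (HSP27 in humans), and Cryab. Hspb1 (ENSMUSG00000004951, chromosome 5, 135887919 to 135889563) was at 87.0, 82.6 and 86.0 FPKM against 156, 169.7 and 159. The groups were far apart relative to their spread, and Hspb1 rose by 0.92 in log2 (SE 0.05, limma adjusted p = 6.5e-06). Of its longest transcript 59.5% matches the pseudogene Hsp25-ps1, which had 8 to 36 reads per library where Hspb1 had 1496 to 3615.

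Cryab (ENSMUSG00000032060, chromosome 9, 50751325 to 50756636) was at 103, 103 and 110.2 FPKM against 137, 138 and 140.07. It rose by 0.39 in log2 (SE 0.05, limma adjusted p = 0.0004), with 3 Ad-PDK4 libraries that were nearly equal. Hspb2, a small heat shock gene on the opposite strand, shares 22.6% of the longest Cryab transcript, and whether the counting used strand is not stated. Hspb2 had 69 to 120 reads per library where Cryab had 2679 to 4576. The ratio of Cryab to Hspb1 was 1.19, 1.25 and 1.28 with the Ad-Con label and 0.874, 0.813 and 0.882 with the Ad-PDK4 label. The ratio was lower in every Ad-PDK4 library than in any Ad-Con library (exact two-sided permutation p = 0.1, adjusted p = 0.1). Which of the pair was the more abundant is not settled, since the FPKM used gene lengths of 1479 bases for Cryab and 1031 for Hspb1 where the longest transcripts have 1117 and 930, and Cryab had more reads in every library.

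Levels in FPKM ran in nearly the same order in both groups. The order rests on the gene lengths behind the FPKM, which for Hsf1 (7099 against 3133 bases), Hsph1 (7266 against 4764) and others exceed the longest transcript, so the places of members close in level are not settled. In Ad-Con-labelled libraries the order from the top was Hsp90ab1 (mean 1179.8 FPKM), Hspa8 (627), Hsp90aa1 (106), Cryab (106), Hspb1 (85.2), Dnajb1 (13.2), Hspa1b (11.997), Hsph1 (9.52), Hsf1 (6.69) and Hspa1a (4.72). The libraries of Hsp90aa1 and Cryab overlapped in this order, as did those of Dnajb1 and Hspa1b, and the other neighbours did not. In Ad-PDK4-labelled libraries Hspb1 (162) stood above Cryab (138) and Hspa1b (30.8) above Dnajb1 (21.7), with overlap between Hsp90aa1 (184) and Hspb1 and between Dnajb1 and Hsph1 (19.95). Of all 10 members the joint share was 0.687 ± 0.005% of summed FPKM with the Ad-Con label and 0.798 ± 0.008% with the Ad-PDK4 label (mean ± SD, n = 3, no test). Hsp90ab1 and Hspa8 took most of it, 0.577 ± 0.007% and 0.610 ± 0.004%. The other 8 went from 0.110 ± 0.003% to 0.188 ± 0.004%.

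**Figure D3:**
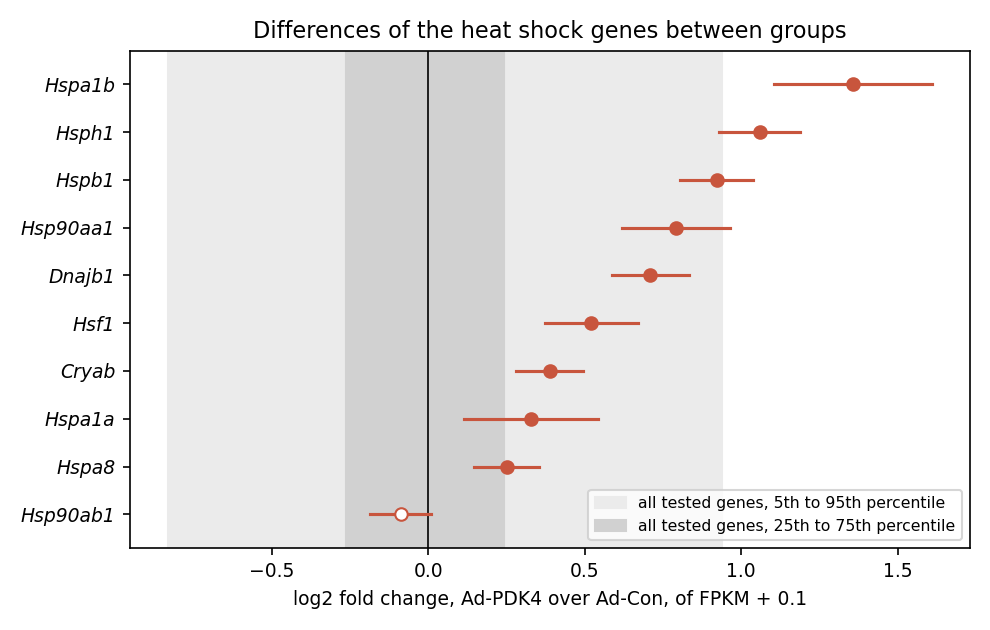
Log2 fold changes of FPKM + 0.1 between the libraries labelled Ad-PDK4 and Ad-Con, with bars for the 95% interval from limma and grey bands for the central ranges of all 13423 tested genes. Filled points passed the adjusted p limit of 0.05; Hspa1b (1.36) and Hsph1 (1.06) lie beyond the 95th percentile of all genes (0.94), and Hsp90ab1 (-0.09, open) lies near 0.

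Other genes of the chaperone network were taken from 8 lists of 101 genes, of which 100 were found and 90 were tested beside the members. Of the 90, 35 were higher and 12 lower (21.8% and 20.8% over all tested genes), 43 were not called, and the median log2 fold change was 0.10. In the list of heat shock factors and binding proteins, none of the 3 tested genes was called by limma, and the median was -0.18. These were Hsf2 (-0.18, limma adjusted p = 0.14), Hsf4 (0.04, limma adjusted p = 0.90) and Hsbp1 (-0.18, limma adjusted p = 0.052), all in log2, the last encoding a protein that binds HSF1. At an unadjusted p below 0.05 there were 0 higher and 1 lower, and limma-voom likewise called 0 higher and 1 lower.

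Among 7 tested relatives of HSP70 and HSP110, 3 were higher and 1 lower (21.8% and 20.8% over all tested genes). Their median was -0.01. Hspa4l, another HSP110 gene, went from 3.42 ± 0.252 to 5.32 ± 0.509 FPKM (mean ± SD, n = 3; 0.62 in log2, limma adjusted p = 0.0015). Hspa14, whose product works at the ribosome, went from 7.01 ± 0.721 to 8.72 ± 0.533 FPKM (0.32 in log2, limma adjusted p = 0.021), a call lost on leaving out Ad-Con replicate 1 (limma adjusted p = 0.074) or 2 (0.066) or Ad-PDK4 replicate 1 (0.050) or 3 (0.063). Hspa2, an HSP70 gene best known from the testis, fell from 17.5 ± 0.647 to 11.8 ± 0.73 FPKM (-0.57 in log2, limma adjusted p = 0.00028). Its direction was thus opposite to that of Hspa1b and Hspa8. Of 4 tested small heat shock relatives (median 0.23) only Hspb8, the partner of BAG3 in selective autophagy, was called, at 49.2 ± 3.72 against 70.2 ± 1.99 FPKM (0.51 in log2, limma adjusted p = 0.00045). None of the 4 was lower, by limma, at an unadjusted p below 0.05 or by limma-voom (0 each). Hspb3 and Cryaa had 0 reads in every library.

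Of the 15 genes listed here as cytosolic J-domain genes, 9 were higher and 2 lower (21.8% and 20.8% over all tested genes). Their median log2 fold change was 0.18. The location of each product was not checked. The largest rises were in Dnajc21 (0.60, limma adjusted p = 0.0065), whose product acts in ribosome assembly, and Dnaja4 (0.59, limma adjusted p = 0.00085). The falls were in Dnajc9 (-0.21, limma adjusted p = 0.047), whose product is a histone co-chaperone, and Dnajc7 (-0.17, limma adjusted p = 0.038). Each fall lost its call under many alternatives, 9 of 17 for Dnajc9 and 8 of 17 for Dnajc7. Leaving out any of Ad-Con replicates 1 to 3 or Ad-PDK4 replicate 2 or 3 ended it for Dnajc9 (limma adjusted p from 0.065 to 0.15), and leaving out any library but Ad-Con replicate 2 did so for Dnajc7 (0.051 to 0.13).

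Of 21 co-chaperone genes of HSP70 and HSP90, 5 were higher, 5 lower and 11 not called (median 0.05), shares near the 21.8% and 20.8% of all tested genes. Stip1, which encodes the HOP protein that links HSP70 to HSP90, had the largest rise, from 49.96 ± 1.95 to 91.4 ± 5.73 FPKM (n = 3; 0.87 in log2, limma adjusted p = 2.2e-05). Chordc1, an HSP90 co-chaperone gene, followed with 0.60 in log2 (limma adjusted p = 0.0024). The largest fall was in Fkbp5, an HSP90 co-chaperone of the glucocorticoid receptor, from 2.22 ± 0.116 to 1.21 ± 0.0138 FPKM (-0.82 in log2, limma adjusted p = 0.00079). Bag4, of the BAG family of HSP70 exchange factors, had -0.50 in log2 (limma adjusted p = 0.014), a call that leaving out Ad-Con replicate 2 ended (0.052). Bag3, chosen after its values were seen because it is a known HSF1 target, was at 55.1 ± 2.32 against 54.3 ± 2.25 FPKM (-0.02 in log2, limma adjusted p = 0.77). This gene alone does not stand for the targets of HSF1, which were not tested as a set.

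The chaperonin TRiC, which folds actin and tubulin, and its partner prefoldin had 5 genes higher, 2 lower and 7 not called of 14 (median 0.08). The largest rises were in Cct3 (0.38, limma adjusted p = 0.001) and Cct6a (0.33, limma adjusted p = 0.0024). The falls were in Cct2 (-0.33, limma adjusted p = 0.0018) and Cct4 (-0.17, limma adjusted p = 0.043), the latter lost in 8 of 17 alternatives, among them all that left out a library except Ad-PDK4 replicate 3 (limma adjusted p from 0.058 to 0.15). Subunits of this complex thus differed in direction.

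Chaperones of other compartments were compared with the cytosolic genes. Of 12 mitochondrial chaperone and protease genes, 5 were higher and 1 lower (21.8% and 20.8% over all tested genes). Their median was 0.14. Dnaja3 (0.49, limma adjusted p = 0.00057) and Hspe1, the cofactor of mitochondrial HSP60 (0.45, limma adjusted p = 0.0043), had the largest rises, and Dnajc19, of the protein import motor, fell from 3.98 ± 0.243 to 2.73 ± 0.169 FPKM (-0.53, limma adjusted p = 0.0023). Of 14 endoplasmic reticulum genes, 7 were higher and 1 lower, beside the same shares over all tested genes, with a median of 0.21. Hspa5, which encodes the luminal HSP70 BiP, went from 72.7 ± 2.03 to 126 ± 4.97 FPKM (n = 3; 0.80 in log2, limma adjusted p = 1.3e-05). Hyou1, its HSP110 partner, had 0.60 (limma adjusted p = 0.00022), and Dnajc10, a luminal disulfide reductase, had -0.25 (limma adjusted p = 0.014), a call that leaving out Ad-Con replicate 3 (0.054) or Ad-PDK4 replicate 1 (0.058) ended. No test compared the compartments with each other.

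**Figure D4:**
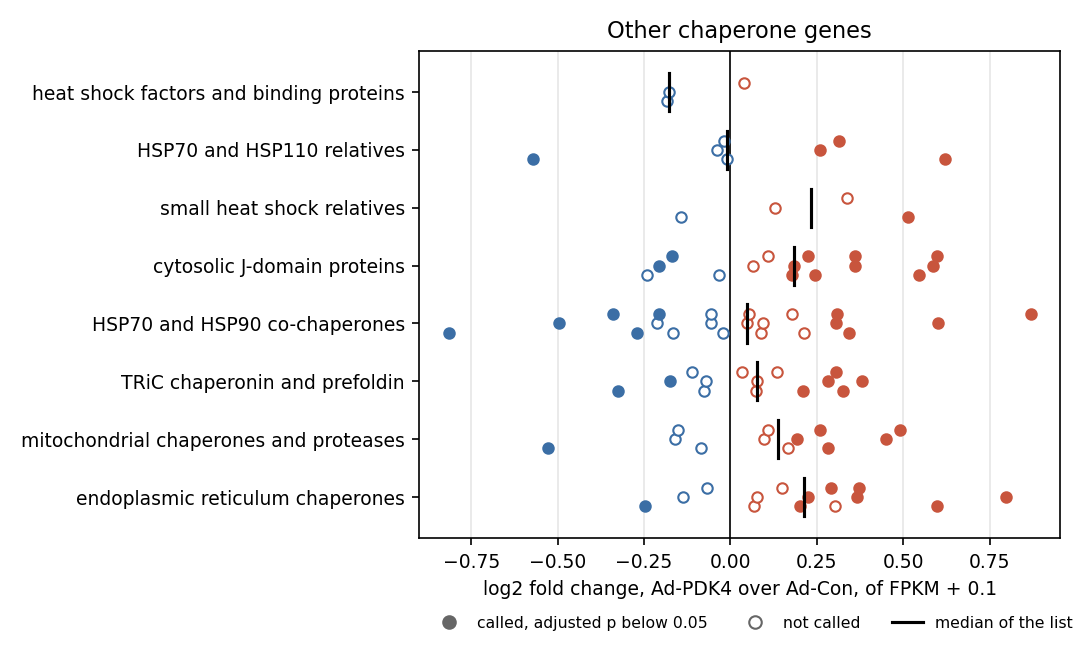
Log2 fold changes of FPKM + 0.1 for the 90 tested genes of 8 chaperone lists, members left out, with 1 point per gene (filled where called) and a black line at each list's median. The medians run from -0.18 to 0.23, and each list of more than 4 genes has called genes on both sides of 0.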

How the data were processed

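RNA-seq had been made from 6 libraries of mouse aortic smooth muscle cells, 3 per group. Groups came from the treatment labels and replicate numbers from the titles. The labels name a SMARTER kit and the study's methods a NEBNext Ultra kit for library preparation. The submitters' processing notes name CASAVA 1.8, fastp, HISAT2 2.0.5, featureCounts 1.5.0-p3 and DESeq2 1.20.0. They also name GRCm39, but 98.3% of 54409 gene identifiers matched in GENCODE M21, all 10 members included, had its GRCm38 coordinates, which are the ones given. Handling of strand and of reads with several matches is not given in the sources used here. Reads that match several genes may have been dropped, which would lower the level of Hspa1a, Hspa1b, Hspa8, Hsp90aa1 and Hspb1.

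The authors deposited FPKM per gene and library, without pooling, together with the gene length in bases. FPKM times length gave whole multiples of 1 step per library for 100% of non-zero values, within 0.01 reads. For paired-end data a read here is a counted fragment. Genes whose FPKM averaged 0.5 or more were compared as log2(FPKM + 0.1) in limma 3.58.1 (R 4.3.3), with trended and robust moderation and Benjamini-Hochberg adjustment over 13423 genes. The pseudocount shrinks fold changes of low genes. A call means an adjusted p below 0.05. The study describes n = 3 as biological replicates. Ratios were tested by exact permutation (20 arrangements). The fit was checked on simulated data. Alternatives were pseudocounts of 1 and 0.01, no filter or a mean FPKM of 5, rescaling to TPM, by quantiles or without mitochondrial genes, plain moderation, limma-voom on recovered reads, the replicate block, each library left out, and Hspa1a with Hspa1b as 1 feature. Sequence sharing was read from GENCODE transcripts in stretches of 50 bases, on either strand.

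The members and lists were chosen with earlier results of these data known. The naming rule took the 10 members, Pdk4 and, of the called genes in each list, the 2 that rose most and the 2 that fell most. Marker genes, genes that share sequence with members, Hsf2, Hsf4, Hsbp1, Hspb3, Cryaa and Bag3 lie outside it, chosen with their values in view.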

Additional observations from a re-analysis of the deposited data

How the results depend on the processing

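The log2 fold changes of the 10 members were refitted under 17 alternatives (16 for Hspa1b), and 165 of the 169 values stayed on the same side of the threshold in the same direction. The others were the lost calls of Hspa1a without Ad-Con replicate 1, Ad-Con replicate 2 or Ad-PDK4 replicate 1 (log2 fold changes 0.32, 0.32 and 0.34) and the change of sign of Hsp90ab1 under quantile normalization (0.061). In the alternative with Hspa1a and Hspa1b as 1 feature, the value counted for Hspa1a is that of the pair (1.12). The fold changes of the other members could not move there, so that alternative adds to the tally without testing them. Leaving out each library in turn gave 8 to 9 members higher and 0 lower, 26 to 37 of the other chaperones higher and 7 to 11 lower, where 12 were lower with all libraries. The value of 7 came without Ad-Con replicate 3. The number of other chaperones higher went from 26 to 39 and of those lower from 7 to 16 over all alternatives. Fits that leave out 1 library have fewer samples. For the ratios, the difference of the log2 ratio between groups (Ad-PDK4 minus Ad-Con) was refitted under alternatives. This difference went from 0.80 to 0.95 for inducible to constitutive HSP70 and from 0.81 to 0.96 for HSP90 alpha to beta. For Cryab to Hspb1 it went from -0.56 to -0.50. Same-numbered libraries did not deviate together (correlations of -0.05, -0.03 and -0.001). This gave no sign of pairing by number, but it cannot show how the libraries were prepared. With the replicate block 9 members were higher, and 2759 genes were higher and 2626 lower over all. With FPKM rescaled to TPM 3363 genes were higher and 2432 lower, and under quantile normalization 2531 and 3132, with 2928 and 2798 as reported. The 2 planned count models on recovered reads were not run, because the deposited unit was FPKM. Depth bore most on Hspa1a, the member with the fewest reads (243 to 349 per library). Shared sequence limits the levels of Hspa1a, Hspa1b, Hspa8, Hsp90aa1 and Hspb1.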

Other observations

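Processed pseudogenes carry copies of several of these mRNAs, and their rows in the table were read beside the members. Gm12346, a transcribed pseudogene copy of Hsp90aa1, had 102, 101 and 103 reads in Ad-Con-labelled libraries and 155, 138 and 208 in Ad-PDK4-labelled ones. Its rise of 0.63 in log2 (limma adjusted p = 0.0019) had the direction of Hsp90aa1, and for reads within the shared sequence the parent and the copy cannot be told apart. Gm8355, a copy of Hspa8, had 47, 60 and 42 reads and 61, 58 and 81 (0.36 in log2, limma adjusted p = 0.13), with overlapping groups. Hsp25-ps1, a copy of Hspb1, had 36, 8 and 25 reads and 24, 11 and 16 (-0.29 in log2, limma adjusted p = 0.70), and its spread within each group was wide.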
